A study of Saccharomyces cerevisiae with 4 samples.

Results

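The ATG genes of Saccharomyces cerevisiae were followed in cultures of the laboratory strain BY4741 that had received honokiol, a biphenolic compound of magnolia bark, or ethanol alone. Members were all genes whose standard symbol is ATG and a number and that the array's annotation names through a probe set. Of 37 such symbols in the R64 gene table, 34 had a named probe set, among 5449 genes tested in all, and each of the 34 was measured by 1 probe set. ATG42, ATG44 and ATG45 were not analysed here, and ATG6 and ATG24, which carry the standard names VPS30 and SNX4, are given with the partner genes. The 34 comprised 17 genes of the core machinery, 7 genes of selective autophagy and 10 accessory genes. Both groups were BY4741 (mating type a, with deletions at HIS3, LEU2, MET17 and URA3) grown in the rich medium YPD, with a labelled culture age of 8 h. The honokiol group (2 arrays) received 12 µg/mL for 2 h, and the ethanol group (2 arrays) the same volume of the solvent for 2 h. The labels call the replicates biological and say no more about the cultures, so p-values measure the spread between these arrays.

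Macroautophagy encloses cytoplasm in a membrane that grows into a closed autophagosome and fuses with the vacuole, where the contents are broken down. In yeast the Atg1 kinase complex starts the process, Atg9 vesicles and the Atg2-Atg18 complex supply membrane, a phosphatidylinositol 3-kinase marks the site, and a pair of ubiquitin-like conjugation systems attach Atg8 to the membrane. Receptor proteins bind both a cargo and Atg8, so that mitochondria, peroxisomes, endoplasmic reticulum or vacuolar enzymes are taken up selectively. In rich medium bulk autophagy is held low by TORC1, while the related cytoplasm-to-vacuole targeting (Cvt) pathway delivers hydrolases to the vacuole during growth.

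Values are RMA intensities given here as log2, and a log2 fold change is honokiol minus ethanol, with its standard error (SE) from limma. A gene was called higher or lower at an adjusted p under 0.05 over all 5449 genes, and falls are given in log2 units. The background level was log2 intensity 4.39, and all 34 members had both group means above it. As labelled, LEU2, MET17 and URA3 read 4.56 or less on every array, and HIS3, whose deletion is partial, read 10.70 to 11.05. The deleted gene MET17 had group means of 4.52 with honokiol and 4.49 with ethanol. Both exceed the background level, so a value just above that level does not show a transcript. Of the 5 genes of mating type a, the a-factor genes MFA1 and MFA2 read 12.77 or more. With honokiol 4 of the 5 (80%) were lower, where 25.0% of all tested genes were. Of the 3 genes of mating type alpha, the alpha-factor gene MF(ALPHA)1 read 3.83 or less, but MF(ALPHA)2 (5.45 to 6.58) and the receptor gene STE3 (7.14 to 7.98) lay above background, and STE3 was higher with honokiol (log2 fold change 0.59, adjusted p = 0.0249). The ethanol arrays differed more from each other than the honokiol arrays did: over the 34 members, differences between replicate arrays had an SD of 0.0971 for honokiol and 0.228 for ethanol. The mean log2 ratio of 5' to 3' signal over 7 control transcripts was -1.18 and -1.22 on the honokiol arrays. On the ethanol arrays it was -1.31 and -1.67, lowest on ethanol 2. The groups did not overlap in this ratio, so a fit adjusted for it cannot fully separate it from honokiol.

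More ATG genes fell than rose. With honokiol 15 of 34 members (44.1%) were lower and 6 (17.6%) were higher, where 25.0% of all tested genes were lower, 23.9% were higher and 48.9% were either. The median log2 fold change of the members was -0.17, against 0.0052 over all tested genes. Both honokiol arrays lay above both ethanol arrays for 12 members and below them for 19, which held for 40.0% and 40.2% of all tested genes (80.2% in either direction). Changes were moderate: ATG40 and ATG10 passed the threshold with at least a 2-fold rise (3.78% of tested genes did so), and 0 members with at least a 2-fold fall (0.954% did so). Each array averages a whole culture, so less transcript per cell and fewer cells with the transcript cannot be told apart. The number of calls rested on having both honokiol arrays. Without honokiol 1 the test called 1 member higher and 4 lower, and without honokiol 2 it called 2 higher and 3 lower, with 8.06% and 8.09% of all genes then higher and 4.94% and 4.84% lower. Without ethanol 1 it called 11 higher and 14 lower, with 30% of all genes then higher and 28.6% lower. ATG18, ATG33, ATG34 and ATG40 kept their calls without each array in turn and under every other setting tried. ATG18 passed only narrowly without honokiol 1 and without honokiol 2, at log2 fold changes of -0.63 and -0.62.

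**Figure D1:**
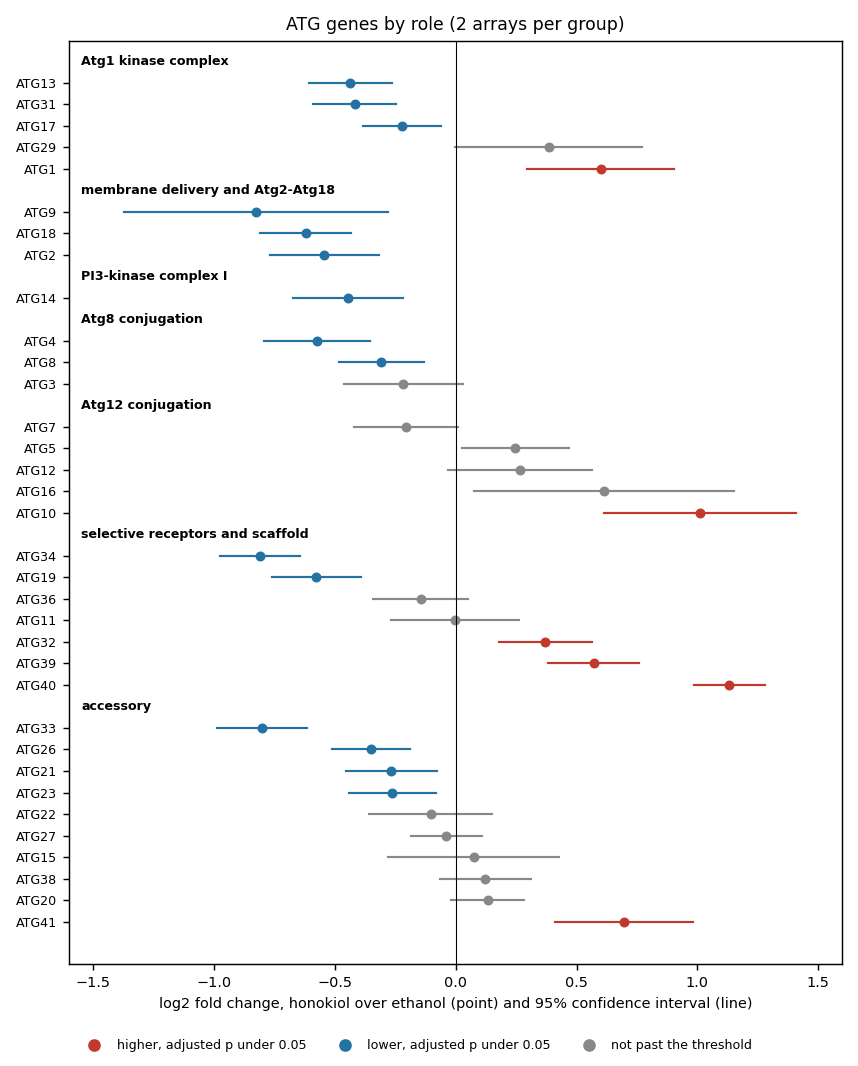
Log2 fold change (honokiol over ethanol, x axis) of the 34 ATG genes, grouped by role down the page, with the 95% confidence interval from limma as a line and the call as colour (2 arrays per group). ATG40 (1.13) and ATG10 (1.01) lie farthest to the right, and ATG9 (-0.83), ATG34 (-0.81) and ATG33 (-0.80) farthest to the left.

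The selective group had calls in both directions, with 3 genes higher (42.9%), 2 lower (28.6%) and 2 not past the threshold. For comparison, 23.9% of all tested genes were higher, 25.0% lower and 48.9% either. Both receptors for the endoplasmic reticulum rose, as did the receptor for mitochondria, while the Cvt receptor and its paralog fell. ATG40, the receptor for cortical and cytoplasmic endoplasmic reticulum, read 11.33 and 11.32 on the honokiol arrays, against 10.19 and 10.21 with ethanol. The gap between the groups far exceeded the distance between replicates, and the rise was 2.19-fold (log2 1.13 ± 0.06, SE; adjusted p = 0.00103). ATG39, the receptor for the nuclear envelope and perinuclear endoplasmic reticulum, read 8.39 and 8.25 with honokiol, against 7.74 and 7.77 with ethanol. Both honokiol arrays lay above both ethanol arrays, and ATG39 rose 1.49-fold (log2 0.57 ± 0.07, adjusted p = 0.00515); without honokiol 1 its adjusted p was 0.0534. ATG32, the mitophagy receptor of the outer mitochondrial membrane, read 9.17 and 9.21 with honokiol and 8.89 and 8.75 with ethanol. Its arrays did not overlap either, with a 1.29-fold rise (log2 0.37 ± 0.07, adjusted p = 0.015). ATG32 was not past the threshold without honokiol 1 (adjusted p = 0.0992), without honokiol 2 (adjusted p = 0.111) or after adjustment for the 5'/3' ratio (adjusted p = 0.0626).

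ATG19 encodes the Cvt receptor, which carries the aminopeptidase Ape1 and the mannosidase Ams1 to the vacuole, and ATG34 its paralog, which takes Ams1 there during starvation. ATG34 read 9.40 and 9.46 on the honokiol arrays, against 10.21 and 10.28 with ethanol, and ATG19 read 10.75 and 10.78 against 11.28 and 11.40. Both genes were lower on both honokiol arrays: ATG34 fell by 0.81 ± 0.06 (adjusted p = 0.00189) and ATG19 fell by 0.58 ± 0.07 (adjusted p = 0.00471). For ATG19 the adjusted p was 0.0557 without honokiol 1 and 0.0508 without honokiol 2. The paralogs are neighbours on chromosome XV in the R64 table, and their probe sets carry no mark of binding several transcripts. ATG11, the scaffold that joins receptor-bound cargo to the Atg1 complex, read 9.04 and 9.18 with honokiol, against 9.01 and 9.23 with ethanol. Its groups overlapped, and the 95% confidence interval of its log2 fold change ran from -0.27 to 0.26 (adjusted p = 0.974). ATG36, the receptor for peroxisomes, read 9.23 and 9.23 with honokiol and 9.45 and 9.30 with ethanol. Its log2 fold change of -0.14 had an interval from -0.34 to 0.05 (adjusted p = 0.169), and it passed the threshold as lower without ethanol 2 (adjusted p = 0.0443) and with the trend on coding length removed (adjusted p = 0.0192), and stood at -0.07 without ethanol 1.

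**Figure D2:**
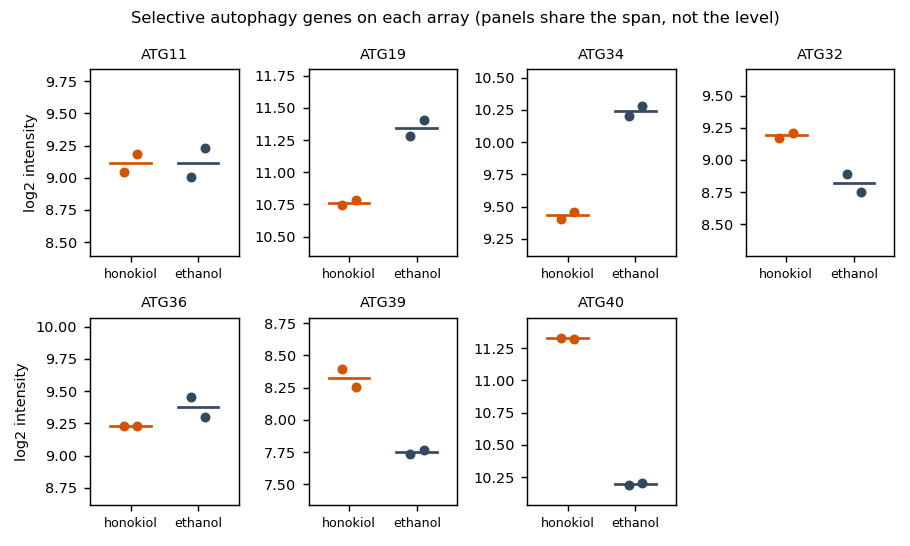
Log2 intensity (y axis) of the 7 selective autophagy genes on each array, honokiol left and ethanol right, with points for arrays and lines for group means; all panels span the same number of log2 units. The honokiol points of ATG32, ATG39 and ATG40 lie above the ethanol points, those of ATG19, ATG34 and ATG36 below, and those of ATG11 among them.

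Among the 17 core genes 9 (52.9%) fell and 2 (11.8%) rose, against 25.0% and 23.9% of all tested genes. The median log2 fold change of the core genes was -0.22. The corresponding median of the 7 selective genes was -0.0042, with changes from -0.81 to 1.13. Whether the core and selective genes differ was not tested. With all 27 members outside the selective group taken as the core, 13 (48.1%) were lower and 3 (11.1%) higher.

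In the Atg1 kinase complex the kinase gene and its regulators went apart. ATG1, the kinase that starts autophagosome formation, read 8.49 and 8.46 with honokiol and 8.03 and 7.72 with ethanol. The ethanol arrays were spread more widely than the honokiol arrays but did not overlap with them, and ATG1 rose 1.51-fold (log2 0.60 ± 0.12, adjusted p = 0.0146). After adjustment for the 5'/3' ratio its log2 fold change was 0.35 (adjusted p = 0.0284). ATG13, the regulatory subunit through which TORC1 acts on the kinase, read 8.91 and 8.91 with honokiol, against 9.29 and 9.40 with ethanol, and fell by 0.44 ± 0.07 (adjusted p = 0.00757). ATG17, ATG29 and ATG31 encode the scaffold subcomplex of bulk autophagy. ATG31 read 9.33 and 9.40 on the honokiol arrays, against 9.75 and 9.82 with ethanol, and ATG17 read 7.50 and 7.42 against 7.69 and 7.67. Both lay below both ethanol arrays: ATG31 fell by 0.42 ± 0.07 (adjusted p = 0.00848) and ATG17 fell by 0.22 ± 0.06 (adjusted p = 0.0374). ATG17 did not pass without ethanol 1 (adjusted p = 0.0559) or after adjustment for the 5'/3' ratio (adjusted p = 0.0769), and its log2 fold change was -0.44 after a repeated quantile normalization. The third scaffold gene, ATG29, had log2 fold change 0.38 (interval -0.0021 to 0.77, adjusted p = 0.0885). It overlaps SET6 in the R64 table, and whether this affects its value was not tested. ATG29 passed as higher without ethanol 1 (log2 fold change 0.58, adjusted p = 0.00407), but stood at 0.18 without ethanol 2 (adjusted p = 0.135), 0.12 after a repeated quantile normalization (adjusted p = 0.365) and 0.09 after adjustment for the 5'/3' ratio (adjusted p = 0.598). The old name CIS1 listed for ATG31 belongs today to another gene, and the values here are those of YDR022C.

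The 3 genes of membrane supply all fell, where 25.0% of all tested genes did. ATG9, which encodes the transmembrane protein of the vesicles that seed the membrane, read 8.29 and 8.15 with honokiol and 8.74 and 9.35 with ethanol. Its ethanol arrays lay 0.61 log2 units apart, the widest gap between ethanol arrays among the members, and ATG9 fell by 0.83 ± 0.21 (adjusted p = 0.0297). ATG9's log2 fold change was -0.52 without ethanol 2 (adjusted p = 0.00822) and -0.37 after adjustment for the 5'/3' ratio (adjusted p = 0.0957). ATG18, a phosphoinositide-binding protein, read 9.03 and 9.01 on the honokiol arrays, against 9.57 and 9.71 with ethanol. ATG2, its lipid-transferring partner, read 8.12 and 8.06, against 8.54 and 8.74. In both genes the distance between groups exceeded that between replicates: ATG18 fell by 0.62 ± 0.07 (adjusted p = 0.00404) and ATG2 fell by 0.54 ± 0.09 (adjusted p = 0.00891), or by 0.33 with the trend on coding length removed. ATG14, the subunit that directs the phosphatidylinositol 3-kinase to autophagy, read 7.32 and 7.47 with honokiol, against 7.91 and 7.77 with ethanol, without overlap, and fell by 0.45 ± 0.09 (adjusted p = 0.0146).

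In the Atg8 system 2 of 3 genes (66.7%) fell and 0 rose. The Atg12 system had 1 of 5 (20%) risen and 0 fallen. Of all tested genes 25.0% fell and 23.9% rose. ATG8, the ubiquitin-like protein that coats the autophagosome, read 10.39 and 10.44 with honokiol and 10.67 and 10.78 with ethanol. ATG4, the protease that trims Atg8 and releases it again, read 7.53 and 7.36, against 7.97 and 8.07. Neither gene's groups overlapped: ATG4 fell by 0.58 ± 0.08 (adjusted p = 0.00708) and ATG8 fell by 0.31 ± 0.07 (adjusted p = 0.0196). The call on ATG8 was lost after adjustment for the 5'/3' ratio (adjusted p = 0.0852), and its log2 fold change was -0.52 with the trend on coding length removed. ATG3, which conjugates Atg8 to lipid, also lay below both ethanol arrays, at log2 fold change -0.22 (interval -0.46 to 0.03, adjusted p = 0.117). ATG3 passed as lower without ethanol 2 (adjusted p = 0.0239), after a repeated quantile normalization (adjusted p = 0.0418), after adjustment for the 5'/3' ratio (-0.37, adjusted p = 0.0479) and with the trend on coding length removed (adjusted p = 0.0182), and stood at -0.11 without ethanol 1. In the Atg12 system ATG10, the enzyme that joins Atg12 to Atg5, read 8.63 and 8.50 with honokiol and 7.76 and 7.35 with ethanol. The groups did not overlap, and ATG10 rose 2.02-fold (log2 1.01 ± 0.15, adjusted p = 0.00758). Its ethanol arrays lay 0.42 log2 units apart, and the log2 fold change was 0.80 without ethanol 2 and 1.22 without ethanol 1. A repeated quantile normalization gave ATG10 0.86, and adjustment for the 5'/3' ratio 0.67 (adjusted p = 0.00935). ATG16, ATG12 and ATG5, which form the complex that promotes Atg8 lipidation, lay above both ethanol arrays on both honokiol arrays at log2 fold changes of 0.61, 0.27 and 0.25 but did not pass the threshold (adjusted p = 0.0624, 0.115 and 0.0662). Their values turned on the ethanol arrays. Without ethanol 1 all 3 passed (adjusted p = 0.00154, 0.00798 and 0.00973), whereas without ethanol 2 their log2 fold changes were 0.32, 0.12 and 0.15 and of the 3 only ATG16 passed (adjusted p = 0.0432). After adjustment for the 5'/3' ratio they were 0.14, 0.05 and 0.09 (adjusted p = 0.272, 0.737 and 0.373). A repeated quantile normalization gave ATG16 a log2 fold change of 0.13 and ATG12 0.16, and neither passed (adjusted p = 0.119 and 0.219). ATG5 passed as higher after that normalization (0.28, adjusted p = 0.042) and with an intensity trend and robust prior (adjusted p = 0.034). ATG16 lay close to background, at 5.37 and 5.20 with honokiol, against 4.97 and 4.38 with ethanol, the last at the background level. ATG7, the activating enzyme shared by both systems, had log2 fold change -0.21 (interval -0.42 to 0.0092, adjusted p = 0.0969).

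Without honokiol 1 the core genes past the threshold were ATG4 and ATG18, and without honokiol 2 ATG18. The other 9 core genes named as risen or fallen then had adjusted p between 0.0525 and 0.236, with the same direction as before. The remaining array then stands alone in its group, and the spread comes from the ethanol pair.

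**Figure D3:**
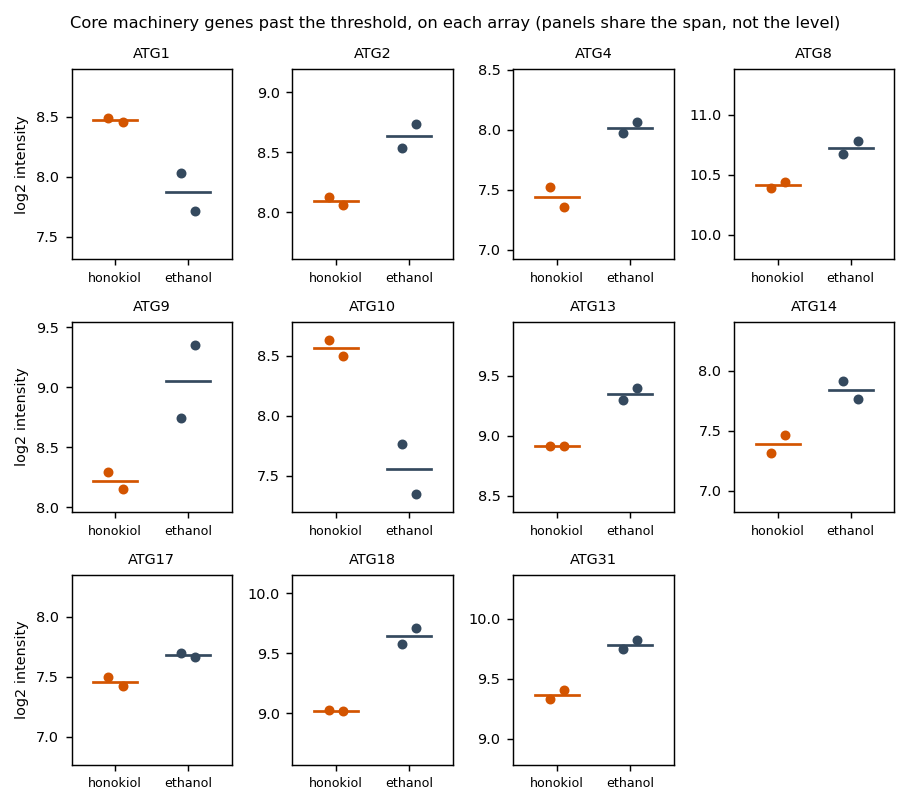
Log2 intensity (y axis) of the 11 core genes past the threshold on each array, honokiol left and ethanol right, with points for arrays and lines for group means; all panels span the same number of log2 units. ATG1 and ATG10 have both honokiol points above the ethanol points, the other 9 have them below, and the ethanol points of ATG9 are the farthest apart.

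Of the 10 accessory genes 4 (40%) fell and 1 (10%) rose, against 25.0% and 23.9% of all tested genes. ATG33, a protein of the outer mitochondrial membrane that takes part in mitophagy, read 10.71 and 10.62 with honokiol, against 11.51 and 11.42 with ethanol. The groups were separated by far more than the replicates, and ATG33 fell by 0.80 ± 0.07 (adjusted p = 0.00243), opposite in sign to the mitophagy receptor ATG32. ATG41, which binds Atg9 and is also known as ICY2, read 11.96 and 11.96 on the honokiol arrays, against 11.41 and 11.12 with ethanol. Both honokiol arrays lay above, a 1.62-fold rise (log2 0.70 ± 0.11, adjusted p = 0.00849), again opposite in sign to ATG9 itself. ATG26, a sterol glucosyltransferase, read 9.71 and 9.79 with honokiol and 10.10 and 10.10 with ethanol, and fell by 0.35 ± 0.06 (adjusted p = 0.0113). With the trend on coding length removed its log2 fold change was -0.18 (adjusted p = 0.0862).

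ATG21, a phosphoinositide-binding relative of Atg18 that acts in the Cvt pathway, read 10.04 and 10.13 with honokiol, against 10.30 and 10.40 with ethanol. ATG23, which accompanies Atg9 on its vesicles, read 7.70 and 7.82, against 8.04 and 8.01. Both fell without overlap and by little: ATG21 fell by 0.27 ± 0.07 (adjusted p = 0.0351) and ATG23 fell by 0.26 ± 0.07 (adjusted p = 0.0327). After adjustment for the 5'/3' ratio neither passed (adjusted p = 0.17 and 0.0881), and ATG21 did not pass without ethanol 2 (adjusted p = 0.0701), while ATG23 had log2 fold change -0.43 after a repeated quantile normalization. Without honokiol 1 or honokiol 2 the adjusted p of ATG21, ATG23, ATG26 and ATG41 lay between 0.0653 and 0.222. The other 5 accessory genes did not pass: ATG27, a membrane protein that also escorts Atg9, the vacuolar lipase ATG15, the vacuolar amino acid exporter ATG22, the sorting nexin ATG20 and ATG38, a kinase-complex subunit. Their log2 fold changes ran from -0.10 (ATG22) to 0.13 (ATG20), and their adjusted p from 0.12 to 0.675. ATG15 passed as higher without ethanol 1 (log2 fold change 0.26, adjusted p = 0.023) but changed sign without ethanol 2 (-0.12, adjusted p = 0.213), after a repeated quantile normalization (-0.18, adjusted p = 0.181) and after adjustment for the 5'/3' ratio (-0.22, adjusted p = 0.115). ATG22 passed as lower after that adjustment (-0.29, adjusted p = 0.0463) and stood at 0.0126 without ethanol 1.

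Partner genes under other names were counted from lists drawn from textbook knowledge. Over 75 measured partners 26 (34.7%) were lower and 10 (13.3%) higher, with a median log2 fold change of -0.11. The shares of all tested genes were 25.0% lower and 23.9% higher. Of the partners of ATG14 in the lipid kinase complex, VPS30 (the ATG6 gene), VPS34 (the catalytic subunit) and VPS15 (its regulatory kinase) fell too. The accessory member ATG38, also a subunit of that complex, did not pass (log2 fold change 0.12, adjusted p = 0.212). SNX4 and VAC8, listed with them but outside that complex, did not pass, so 3 of the 5 listed partners (60%) fell and 0 rose. VPS30 fell by 0.48 ± 0.06 (adjusted p = 0.00491), VPS34 fell by 0.43 ± 0.07 (adjusted p = 0.0104) and VPS15 fell by 0.35 ± 0.06 (adjusted p = 0.0123). VPS15 did not pass with the trend on coding length removed (log2 fold change -0.15, adjusted p = 0.127) or after adjustment for the 5'/3' ratio (adjusted p = 0.0506).

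Most cargo and hydrolase genes fell. Of 8 genes for Cvt cargo and vacuolar hydrolases 7 (87.5%) were lower and 0 higher, with a median of -0.57. Among all tested genes 25.0% were lower and 23.9% higher. APE1, whose product is the main Cvt cargo, read 11.91 and 11.90 on the honokiol arrays, against 12.69 and 12.71 with ethanol, and fell by 0.79 ± 0.06 (adjusted p = 0.00159). AMS1, the mannosidase cargo, fell by 0.73 ± 0.13 (adjusted p = 0.0103), or by log2 fold change -0.47 after adjustment for the 5'/3' ratio, and the aminopeptidase cargo APE4 fell by 0.66 ± 0.06 (adjusted p = 0.00244). The cargo genes APE1 and AMS1 lay lower together with their receptor gene ATG19. The protease gene PEP4 was the one not past the threshold (log2 fold change -0.13, adjusted p = 0.125).

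Of 22 measured genes for TORC1 and other signalling upstream 6 (27.3%) fell and 4 (18.2%) rose (median -0.10), near the shares of all tested genes. KSP1, a kinase that restrains autophagy, fell by 0.51 ± 0.07 (adjusted p = 0.0059), while LST8, a subunit of both TOR complexes, rose 1.42-fold (adjusted p = 0.0039) and RAS2, which activates protein kinase A, rose 1.40-fold (adjusted p = 0.00464). The TORC1 kinase gene TOR1 had log2 fold change -0.23 (interval -0.44 to -0.03, adjusted p = 0.0608). Of 11 transcriptional regulators 3 (27.3%) fell and 1 (9.09%) rose (median 0.09), against 25.0% and 23.9% of all tested genes. MSN4, an activator of general stress genes, fell by 0.68 ± 0.13 (adjusted p = 0.0132). SIN3, a corepressor that acts with Ume6 on ATG8, fell by 0.47 ± 0.11 (adjusted p = 0.0224), and GAT1, a nitrogen-responsive activator, rose 1.30-fold (adjusted p = 0.0285). After adjustment for the 5'/3' ratio SIN3 and GAT1 did not pass (adjusted p = 0.105 and 0.145), and SIN3 had log2 fold change -0.26 with the trend on coding length removed.

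In the fusion list 5 of 15 genes (33.3%) fell and 3 (20%) rose (median -0.06), against 25.0% and 23.9% of all tested genes. VAM6 (the VPS39 gene) and PEP3, subunits of the tethering complexes of the vacuole, fell by 0.75 ± 0.13 (adjusted p = 0.00995) and fell by 0.72 ± 0.15 (adjusted p = 0.0192), and SEC18, which recycles fusion proteins, fell by 0.54 ± 0.08 (adjusted p = 0.008). After adjustment for the 5'/3' ratio the log2 fold changes were -0.48 for VAM6 and -0.37 for PEP3. Of 8 genes listed for tethering by TRAPPIII, which acts on Atg9 vesicles, 2 (25%) rose and 0 fell (median 0.10). TRS85 (log2 fold change 0.04, adjusted p = 0.576) and YPT1 (0.06, adjusted p = 0.541) did not pass. The share of all tested genes that rose was 23.9%. BET3 rose 1.34-fold (adjusted p = 0.0256) and BET5 1.21-fold (adjusted p = 0.0227). BET5 did not pass with the trend on coding length removed (adjusted p = 0.375) nor BET3 after adjustment for the 5'/3' ratio (adjusted p = 0.0999); BET3 had log2 fold change 0.26 with that trend removed. Of 6 genes of selective autophagy without an ATG name 2 (33.3%) fell and 0 rose. CUE5, a ubiquitin-binding receptor, fell by 0.60 ± 0.10 (adjusted p = 0.00898). PEX3, the peroxisomal protein to which Atg36 binds, fell by 0.23 ± 0.06 (adjusted p = 0.0264). After adjustment for the 5'/3' ratio PEX3 did not pass (adjusted p = 0.0808). Of the 19 partners named as risen or fallen, APE1 and APE4 were past the threshold without honokiol 1 and without honokiol 2, and the others were not (adjusted p between 0.0528 and 0.185).

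**Figure D4:**
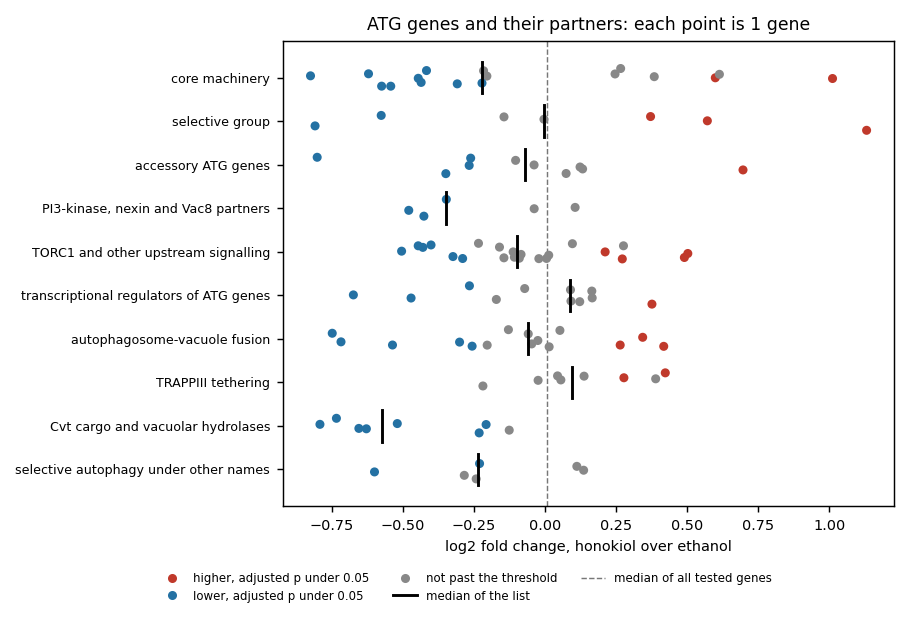
Log2 fold change (honokiol over ethanol, x axis) of each gene in the 3 ATG classes and the 7 partner lists, with the call as colour, the median of each list as a black bar and the median of all tested genes (0.0052) as a dashed line. The list of Cvt cargo and vacuolar hydrolases lies wholly to the left, with a median of -0.57, and the selective group is spread on both sides.

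Fold changes ran with coding length. Over all tested genes the median log2 fold change was 0.14 in the shortest of 4 length bins of nearly equal size and -0.17 in the longest. Across the 34 members, which share arrays and normalization, Spearman's rho between coding length and log2 fold change was -0.33, and it was -0.29 across all tested genes. The median was 0.27 for the 9 members in the shortest bin and -0.35 for the 7 in the longest, where ATG1 rose. With this trend removed 6 members were higher and 16 lower, and the core median was -0.32; over all genes 21.8% were then higher and 28.9% lower, with a median of -0.05. Ethanol 1 lay on the honokiol side of ethanol 2 for 4 of the 6 members that rose and 11 of the 15 that fell, as it did for 75.3% and 71.4% of all genes that rose or fell. After adjustment for the 5'/3' ratio 5 members were higher and 12 lower, with 17.1% of all genes then higher and 17.2% lower. The ratio ran with the groups, so what this fit removed cannot be assigned to the ratio or to honokiol.

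**Figure D5:**
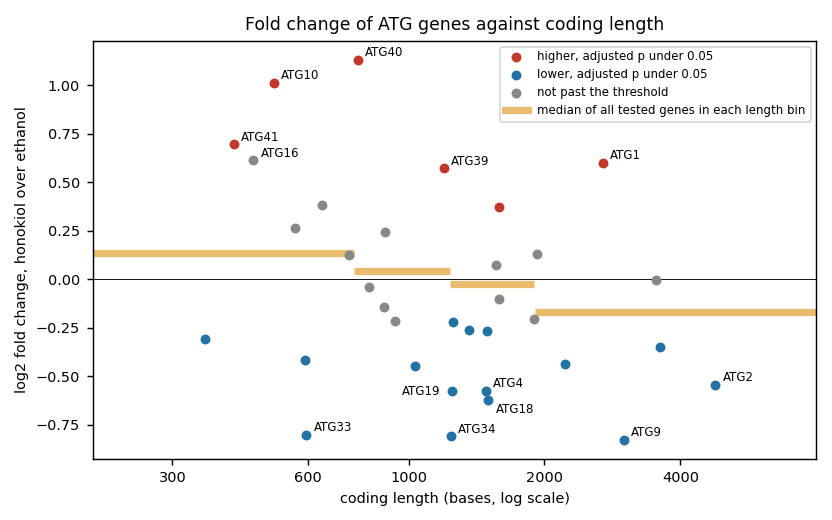
Log2 fold change (honokiol over ethanol, y axis) of the 34 ATG genes against coding length in bases (x axis, log scale), with the call as colour and the median of all tested genes in each of 4 length bins as a bar. The bars step down from 0.14 to -0.17, and ATG1, ATG39 and ATG40 lie above them while ATG33 and ATG34 lie below.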

How the data were processed

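Transcripts were measured on 4 Affymetrix arrays, 1 per sample, grouped by sample title. RMA produced the deposited intensities, per the submitters' processing notes, with its version and a genome build not given in the sources used here. These intensities lie on a linear scale, so log2 was taken, with no pseudocount. RMA's quantile step gives all arrays 1 distribution of probe values before these are summarized into probe sets, so changes are relative. The deposited values still differed slightly, with medians over the tested genes from 9.57 (ethanol 1) to 9.59 (ethanol 2). Of 10928 probe sets, 5498 named 1 S. cerevisiae gene through the platform annotation and the R64 gene table, giving 5449 genes, each through its brightest probe set. The background level is the 95th percentile of the means of 1747 annotated probe sets that were not matched to 1 gene of that table. The test was limma 3.58.1 in R 4.3.3 (lmFit and eBayes, two-sided, tested on simulated data) with Benjamini-Hochberg adjustment over all 5449 genes; it had 2 residual and 2.76 prior degrees of freedom, and so few arrays limit the precision. Values and tests are given for all selective genes, all members past the threshold, and up to 3 called genes of largest change per partner list. Other members, PEP4, TOR1, TRS85 and YPT1 were chosen for mention after their values were seen. Members and lists were chosen with earlier results of these data known. Alternatives were a replicate block, each array left out, another prior, 2 other normalizations, a background filter, other sets or summaries of probe sets, the 5'/3' ratio in the model and, chosen after seeing the data, a loess trend on coding length removed and VPS30 and SNX4 as members.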

Additional observations from a re-analysis of the deposited data

How the results depend on the processing

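The directions of all 21 called members were the same under all 13 alternative fits. Of these members 4 (ATG18, ATG33, ATG34, ATG40) were called in every fit, ATG18 only narrowly without honokiol 1 or honokiol 2. Leaving out 1 array in turn gave 705 to 3190 genes called of all tested, where 2663 were called with all arrays. It gave 1 to 11 members higher and 3 to 16 lower, 0 to 6 core genes higher and 1 to 10 lower, 1 to 3 selective genes higher and 1 to 3 lower, a core median of -0.29 to -0.21 and a selective median of -0.0746 to 0.106. The low counts came without honokiol 1 or honokiol 2, when the spread rests on the ethanol pair. Fitting and adjusting over all but the AFFX control probe sets, 1611 genes were called (15.3% of all tested higher and 14.3% lower). Of the members 5 were higher and 10 lower. ATG8, ATG9, ATG17, ATG21, ATG23 and ATG32 then lost their calls (adjusted p from 0.0505 to 0.116), and of the named partners so did SIN3, GAT1, PEP3, BET3, BET5 and PEX3 (0.0506 to 0.093), while with an intensity trend and robust prior ATG17 did (0.107). The core median was -0.32 with the trend on coding length removed (chosen after seeing the data); the selective median was then 0.16, and 0.18 after adjustment for the 5'/3' ratio; the cause was not tested. No pairing follows from the labels, and the replicate differences of the groups correlated at 0.325 over genes and 0.0022 over members. With the replicate number as a replicate block 2809 genes were called (25.9% of all tested higher and 25.6% lower). Then 7 members were higher and 15 lower, ATG16 being the member added. With VPS30 and SNX4 as members 6 were higher and 16 lower. Signal over background limits ATG16, which read 4.38 on ethanol 2 against a background level of 4.39.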

Other observations

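Neighbouring genes in the R64 table were looked at for ATG40, ATG34 with ATG19, ATG10, ATG33 and ATG9, chosen for their large changes after their values were seen. Beside ATG40 lies PDR5, a drug efflux pump of the plasma membrane, which rose with honokiol (log2 fold change 0.78, adjusted p = 0.0018), while RPB2 on the other side, a subunit of RNA polymerase II, had log2 fold change -0.19 (adjusted p = 0.0444). Beside ATG34 lies PHM7, at log2 fold change -1.09 (adjusted p = 0.0038), and on the far side of ATG19 lies IRA2, a negative regulator of Ras, at -0.16 (adjusted p = 0.157). Beside ATG10 lie FPS1, a glycerol channel, at 0.13 (adjusted p = 0.14) and SDH2, a succinate dehydrogenase subunit, at -0.40 (adjusted p = 0.0226). The coding regions of ATG29 and SET6 overlap in that table, and SET6 had log2 fold change 0.16. Beside ATG33 lies ILV5, an enzyme of branched-chain amino acid synthesis, which rose (log2 fold change 1.42, adjusted p = 0.00545), with RSC2, of a chromatin remodelling complex, on the other side at -0.09 (adjusted p = 0.253). Beside ATG9 lie NOP14, a nucleolar protein of ribosome assembly, at 0.44 (adjusted p = 0.015), and RPC53, a subunit of RNA polymerase III, at 0.23 (adjusted p = 0.0629), both opposite in sign to ATG9.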
